A study of Mus musculus with 20 samples.

Results

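The 6 genes described here are those of vitamin D and phosphate handling that were looked up by symbol in a table of 6025 genes: Cyp24a1, Cyp27b1, Vdr, Slc34a1, Slc34a3 and Kl. All 6 symbols were found. The values come from kidney cortex of wild-type mice (genotype WT, strain given as C57BL/6 in the labels and C57BL/6J in the protocol) aged 8 weeks. Controls (n = 8) are labelled mock, and the series counts mock and vehicle animals together. The injured groups were ischemia-reperfusion injury at 24 h (IRI, n = 4), rhabdomyolysis at 24 h (n = 4) and cisplatin at 72 h (n = 4), each mouse giving 1 poly(A) RNA library. Cisplatin was sampled at a different time from the other injuries, so drug and time cannot be told apart.

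In the proximal tubule, the 1-alpha-hydroxylase encoded by Cyp27b1 makes the active hormone calcitriol, the 24-hydroxylase encoded by Cyp24a1 inactivates it, and the nuclear receptor encoded by Vdr carries its signal to genes, Cyp24a1 being the classic target. Filtered phosphate is taken back at the brush border by the sodium-phosphate cotransporters NaPi-IIa (Slc34a1) and NaPi-IIc (Slc34a3). Parathyroid hormone and the bone hormone FGF23 remove these cotransporters from the membrane. FGF23 needs klotho (Kl) as co-receptor, lowers Cyp27b1 and raises Cyp24a1, while parathyroid hormone raises Cyp27b1.

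Values are CPM, read counts that the authors scaled to library size. The table holds 3.48 to 5.40 M (mega) reads per library. The library identifiers form 2 ranges. IRI was set against controls 1 to 4, whose range it shares; rhabdomyolysis and cisplatin were set against controls 5 to 8, and so have their controls in common. Differences are on the log2(CPM + 1) scale, which understates changes of low genes, with limma p-values adjusted over the 5672 genes tested and a threshold of 0.05. Each gene in the table is one whose mean in some injury was 1.5-fold or more away from that of the controls, so a high share of calls is a property of the table. Between the ranges of controls, 0 of the 6 genes and 0 genes in all were called by limma after adjustment (454 genes at an unadjusted p under 0.05). In IRI 1 of the 6 genes rose and 4 fell, beside 40.6% of all tested genes called higher and 40.1% called lower. In rhabdomyolysis 0 rose and 5 fell (48.8% and 46.5% of all tested genes), and in cisplatin 1 rose and 4 fell (47.8% and 44%). Cyp27b1 was the gene without a call in each injury. With 6 genes, nothing further is read from these counts. For the 3 injuries in the order IRI, rhabdomyolysis, cisplatin, the median difference of all tested genes was 0.077, 0.31 and 0.30. It moved to 0.19, 0.44 and 0.38 with 75th percentile scaling and to 0.023, 0.14 and 0.033 with quantile normalization.

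Markers of tubule, immune and other cells moved with injury in these samples, and their part in the results below was not tested. The summed CPM of 18 proximal tubule markers (of 19 listed) ranged from 38518 to 64155 in controls, 14128 to 21400 in IRI, 9469 to 11358 in rhabdomyolysis and 7330 to 12157 in cisplatin. A set of 8 distal convoluted tubule markers (of 10 listed) summed to 1528 to 2567 in controls and to 320 to 967 over the injured mice. All 8 injured tubule markers rose in each injury, from a summed 99.0 to 152 CPM in controls to 4342 to 5245 in IRI, 4388 to 5083 in rhabdomyolysis and 4294 to 5756 in cisplatin. Macrophage and monocyte markers (9 of 11 listed) summed to 83.1 to 119 CPM in controls and 131 to 321 in injured mice. Among them Csf1r, the receptor for macrophage colony-stimulating factor, was lower in each injury, with a mean of 51.7 CPM in controls, 16.1 in IRI, 28.7 in rhabdomyolysis and 29.5 in cisplatin. Of the 9, 5 rose in IRI, 8 in rhabdomyolysis and 7 in cisplatin. All 5 neutrophil markers in the table (of 6 listed) rose in each injury, from a summed 2.82 to 5.11 CPM in controls to 13.6 to 49.1 in injured mice. All 4 collecting duct markers (of 10 listed) fell in each injury, from 431 to 558 CPM to 157 to 299. Endothelial markers (3 of 7 listed) summed to 81.1 to 197 CPM in controls, 170 to 206 in IRI, 362 to 452 in rhabdomyolysis and 223 to 309 in cisplatin. Podocyte markers (2 of 5 listed) summed to 166 to 464 CPM in controls and 471 to 913 in injured mice. None of the markers of these lists was at 0 in all libraries of a group. In bulk cortex, fewer cells of a type and less RNA per cell cannot be told apart.

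**Figure D1:**
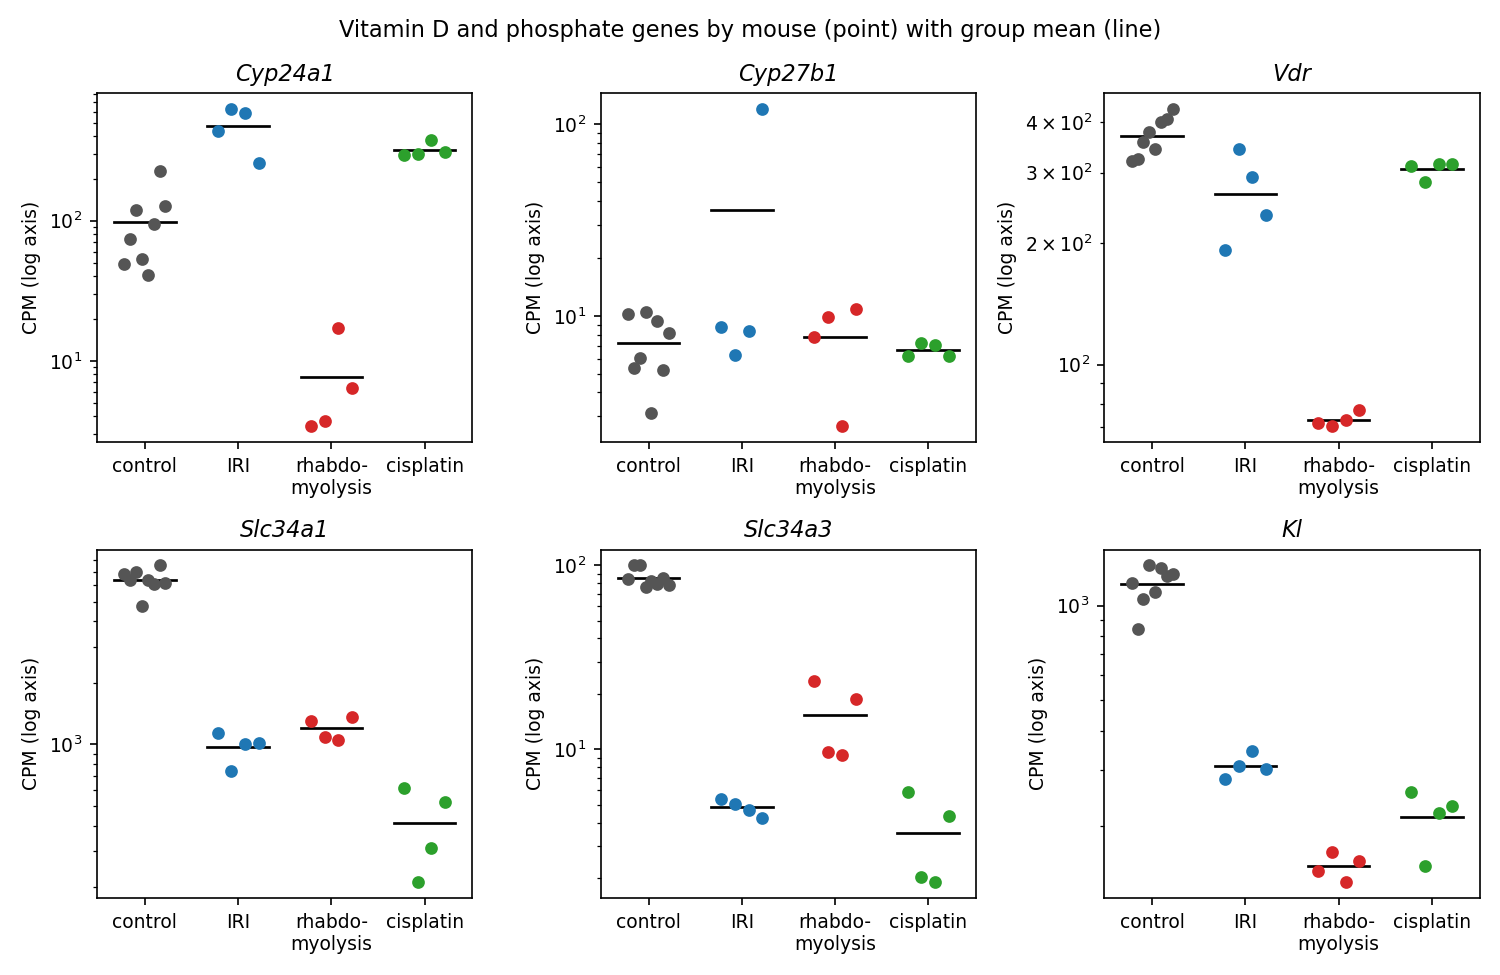
CPM of the 6 genes in each mouse (points, log axis, 1 panel per gene) with the group mean as a line, for control (n = 8), IRI, rhabdomyolysis and cisplatin (n = 4 each). Cyp24a1 lies above all controls in IRI and cisplatin and below them in rhabdomyolysis, Slc34a1, Slc34a3 and Kl lie below all controls in the 3 injuries, and 1 IRI mouse carries 120 CPM of Cyp27b1.

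Cyp24a1, the enzyme that ends the hormone's action, rose in IRI and cisplatin and fell in rhabdomyolysis. The gene lies at chr2:170482708-170497145 on the minus strand (GRCm38, GENCODE vM21). Control mice 1 to 4 had 48.8, 74.5, 119 and 52.9 CPM, and control mice 5 to 8 had 40.8, 94.5, 225 and 128 CPM. The IRI mice had 438, 624, 585 and 257 CPM and the cisplatin mice 294, 301, 375 and 310 CPM. Every mouse of these 2 injuries lay above the highest control. Rhabdomyolysis gave 3.40, 3.74, 17.1 and 6.36 CPM, each below the lowest control. Those values rest on 36 to 180 reads per library.

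Against its own controls, mean Cyp24a1 was 6.46-fold higher in IRI (log2 difference 2.69, SE 0.43, limma adjusted p = 9.02e-06). It was 2.62-fold higher in cisplatin (1.62, SE 0.43, limma adjusted p = 0.00134). In rhabdomyolysis it was 16.0-fold lower (-3.84, limma adjusted p = 2.19e-08, SE 0.43); leaving out 1 library gave -4.28 to -3.46, the former without rhabdomyolysis mouse 3. The direct comparison of rhabdomyolysis with cisplatin gave -5.46 (SE 0.43, limma adjusted p = 7.45e-10), and the IRI effect exceeded the rhabdomyolysis effect by 6.52 (limma adjusted p = 3.24e-08, SE 0.61). Between the effects of IRI and cisplatin the difference was 1.07 (95% interval -0.19 to 2.32, limma adjusted p = 0.189), which does not show that they were alike; without control mouse 5 this difference was 1.50 and passed the threshold (limma adjusted p = 0.0441). The gene overlaps Pfdn4 on the opposite strand. The library kit keeps strand, but whether the counting used it is not given in the sources used here, so a share of Pfdn4 reads cannot be told apart.

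Cyp27b1, the enzyme that makes the hormone (chr10:127048250-127053006, plus strand), had low counts in most libraries. Control values were 3.13 CPM at the lowest, 7.11 at the median and 10.5 at the highest, from 19 to 76 reads. Rhabdomyolysis mice had 7.75, 9.85, 2.66 and 10.9 CPM, and cisplatin mice had 6.19, 7.27, 7.04 and 6.20 CPM. Both groups overlapped the controls. The rhabdomyolysis difference was 0.19 (95% interval -1.02 to 1.40, limma adjusted p = 0.753), and the cisplatin difference was 0.12 (-1.09 to 1.33, limma adjusted p = 0.839). These intervals are wide, so a change of about 1 log2 unit either way was not detectable in this fit. Its spread is shared by all groups and takes in IRI mouse 4, described below, which is in neither comparison. Without that mouse, the SE of the difference between the IRI and rhabdomyolysis effects was 0.46. The width of the intervals above therefore rests in part on that mouse.

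In IRI, 3 mice had values within the range of the controls, 8.79, 6.26 and 8.38 CPM, while mouse 4 had 120 CPM, from 1046 reads. That is 13.6-fold above the next IRI mouse. Among 4429 genes whose mean reached 5 CPM, Cyp27b1 was the 1 gene that exceeded each other IRI mouse by at least 5-fold in this library. Mean Cyp27b1 was 7.26 CPM in controls, 35.8 in IRI, 7.79 in rhabdomyolysis and 6.67 in cisplatin. It therefore met the table's 1.5-fold limit only in IRI, where this mouse carries the mean. Its rank among the genes of the table is thus no independent support. The same mouse had the lowest Cyp24a1 of the IRI group, 257 CPM. Its library correlated with the other IRI libraries at a mean r of 0.982 over those genes, against 0.984 to 0.986 for the other IRI mice. The group difference was 0.95 (SE 0.58, limma adjusted p = 0.135), and it was 0.0020 without mouse 4 (limma adjusted p = 0.996). It passed the threshold in 3 other settings, with all 8 controls (1.10, limma adjusted p = 0.0424), without IRI mouse 2 (1.35, limma adjusted p = 0.0458) and with edgeR's quasi-likelihood test on recovered reads (2.16, adjusted p = 0.00672). Since 1 library carries the value, no change of the IRI group can be read from it.

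**Figure D2:**
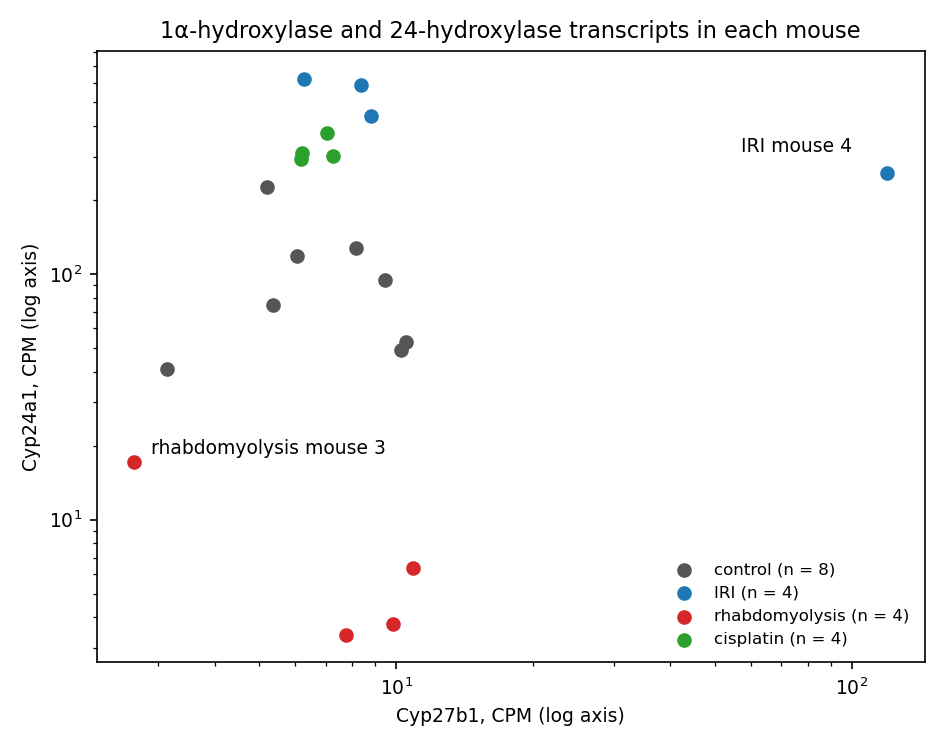
Cyp24a1 CPM against Cyp27b1 CPM in each of the 20 mice (both axes log), coloured by group. At Cyp27b1 values of 2.66 to 10.9 CPM in 19 mice, Cyp24a1 runs from 3.40 to 624 CPM, and IRI mouse 4 stands apart at 120 CPM of Cyp27b1.

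The ratio of 2 genes within a mouse was given as a CPM ratio and tested as the log2 ratio of (CPM + 1), in which the added 1 weighs on low genes. The CPM ratio of Cyp24a1 to Cyp27b1 was 9.98 to 43.3 in controls 5 to 8 and 41.4 to 53.2 in cisplatin. The CPM ratios of these groups overlapped by 1 mouse, while each cisplatin log2 ratio of (CPM + 1) lay above those of controls 5 to 8. In rhabdomyolysis the CPM ratio was 0.439, 0.380, 6.43 and 0.583, below each of controls 5 to 8. The log2 ratio differed by -4.03 in rhabdomyolysis (two-sided exact permutation p = 0.0286, adjusted over 6 ratio tests 0.0571) and by 1.50 in cisplatin (exact p = 0.0286, adjusted 0.0571). Neither passed the correction, and 0.0286 is the smallest p that 4 against 4 mice can give. Against all 8 controls both passed, at -3.59 in rhabdomyolysis (adjusted exact p = 0.0242) and 1.94 in cisplatin (adjusted exact p = 0.0121). In IRI the ratio was 49.9, 99.7, 69.8 and 2.15 against 4.78 to 19.6 in controls 1 to 4, and mouse 4 brought the groups into overlap (log2 difference 1.74, exact permutation p = 0.229, adjusted 0.274). Without mouse 4 the difference was 2.95. The smallest two-sided exact permutation p that 3 against 4 mice can give is 0.0571, so that test could not pass the threshold whatever the values. Leaving out each library in turn gave differences of 1.17 to 2.95.

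Vdr, the calcitriol receptor (chr15:97854425-97910630, minus strand), fell in rhabdomyolysis, and its smaller differences in the other injuries depended on the scaling. Control values ran from 320 CPM through a median of 367 to 431. The rhabdomyolysis mice had 71.6, 70.2, 73.0 and 77.2 CPM, a narrow band far below each control. Their mean was 5.42-fold lower than that of controls 5 to 8 (log2 difference -2.42, SE 0.13, limma adjusted p = 2.00e-13). The cisplatin mice had 312, 284, 314 and 316 CPM, and the IRI mice 192, 343, 292 and 236 CPM. Cisplatin lay below the controls without overlap, while IRI overlapped them. The differences were -0.36 in cisplatin (SE 0.13, limma adjusted p = 0.0127) and -0.40 in IRI (SE 0.13, limma adjusted p = 0.00774). Neither direction held under every scaling: quantile normalization gave 0.081 in cisplatin and 0.046 in IRI, and with 75th percentile scaling neither passed the threshold. Without IRI mouse 1 the IRI difference was -0.26 (limma adjusted p = 0.0516). The rhabdomyolysis fall exceeded those of cisplatin, at -2.05 in the direct comparison (SE 0.13, limma adjusted p = 2.87e-11), and of IRI, whose effect was 2.01 higher (SE 0.18, limma adjusted p = 2.93e-08).

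Slc34a1 and Slc34a3, the brush border phosphate cotransporters, fell in the 3 injuries. Slc34a1 (chr13:55398187-55415592, plus strand) overlaps Pfn3 on the opposite strand, and Slc34a3 lies at chr2:25228898-25234364 on the minus strand. Since both cotransporters fell, the sequence before each start is shown, from RefSeq (GRCm38.p6), as the 250 bases at chr13:55399398-55399647 for Slc34a1 and 120 bases at chr2:25234365-25234484 for Slc34a3; the other 130 bases of that window are exonic in GENCODE and are left out. The Slc34a1 window lies inside the GENCODE span of the gene, outside its exons. Capitals mark matches to GTTAAT (a core of HNF1 sites) or its reverse complement, and a match to AGTTCA, which is a variant of the hexamer bound by the vitamin D receptor.
Slc34a1: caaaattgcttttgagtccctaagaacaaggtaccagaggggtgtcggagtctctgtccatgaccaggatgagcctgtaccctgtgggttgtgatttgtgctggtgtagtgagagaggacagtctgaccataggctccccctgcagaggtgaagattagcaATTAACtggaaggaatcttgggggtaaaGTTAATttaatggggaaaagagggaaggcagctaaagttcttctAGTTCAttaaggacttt
Slc34a3: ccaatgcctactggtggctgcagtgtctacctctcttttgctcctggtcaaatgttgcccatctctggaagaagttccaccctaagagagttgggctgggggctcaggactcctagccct
The motifs searched on both strands were the nuclear receptor hexamer AGGTCA, its variant AGTTCA, the HNF1 core GTTAAT and the TATA box TATAAA, and no match overlapped another here. Slc34a1 held 1 AGTTCA, 17 to 12 bases before the start, and 2 GTTAAT. The Slc34a3 bases shown held none, and its 2 AGGTCA matches lay in the exonic part. Among 32851 RefSeq promoters of the same length, 14.0% held AGGTCA, 11.8% AGTTCA, 6.43% GTTAAT and 12.4% TATAAA, so these matches are common and describe letters, not bound sites. Of the 6 genes, 5 have an entry in that promoter table.

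Slc34a1 was the more abundant cotransporter. Per kilobase of exon, controls had 1584 ± 204 CPM of Slc34a1 and 39.1 ± 4.26 of Slc34a3 (SD, n = 8). Control Slc34a1 ran from 4727 CPM through a median of 6395 to 7513. IRI mice had 1132, 742, 999 and 1017 CPM, rhabdomyolysis mice 1301, 1089, 1048 and 1363 CPM, and cisplatin mice 611, 212, 312 and 521 CPM. All 12 injured mice lay below the controls, and the cisplatin mice also lay below each IRI and rhabdomyolysis mouse. Slc34a1 was 6.40-fold lower in IRI (log2 difference -2.68, SE 0.23, limma adjusted p = 1.66e-09) and 5.44-fold lower in rhabdomyolysis (-2.45, SE 0.23, limma adjusted p = 1.86e-09). In cisplatin it was 15.8-fold lower (-4.09, SE 0.23, limma adjusted p = 7.25e-13). The cisplatin fall was the deeper one, the effect of IRI being 1.41 higher (SE 0.33, limma adjusted p = 0.00246) and rhabdomyolysis 1.64 higher in the direct comparison (SE 0.23, limma adjusted p = 4.22e-06). For IRI and rhabdomyolysis the effects differed by -0.23 (95% interval -0.92 to 0.46, limma adjusted p = 0.576).

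Slc34a3 had the same order of group means as Slc34a1, with other groups overlapping. Controls ran from 76.4 CPM through a median of 83.0 to 99.8. IRI mice had 5.38, 5.06, 4.71 and 4.23 CPM, cisplatin mice 5.84, 2.02, 1.90 and 4.36 CPM, and rhabdomyolysis mice 23.5, 9.65, 9.31 and 18.8 CPM. The rhabdomyolysis values lay between those of the controls and those of both other injuries, with no overlap on either side. The IRI values rest on 37 to 41 reads and the cisplatin values on 17 to 50. Slc34a3 was 18.6-fold lower in IRI (-3.95, SE 0.25, limma adjusted p = 1.49e-11), 22.9-fold lower in cisplatin (-4.27, SE 0.25, limma adjusted p = 1.48e-12) and 5.28-fold lower in rhabdomyolysis (-2.43, SE 0.25, limma adjusted p = 8.19e-09). The rhabdomyolysis fall was the smaller one, the effect of IRI minus that of rhabdomyolysis being -1.53 (SE 0.36, limma adjusted p = 0.00141) and rhabdomyolysis lying 1.85 above cisplatin (SE 0.25, limma adjusted p = 2.80e-06). IRI and cisplatin effects differed by 0.32 (95% interval -0.43 to 1.07, limma adjusted p = 0.529).

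Slc34a1 exceeded Slc34a3 by more in the IRI mice than in their controls. The CPM ratio of Slc34a1 to Slc34a3 was 61.9 to 81.0 in controls 1 to 4 and 211, 147, 212 and 240 in the IRI mice. All 4 IRI ratios lay above the controls, a log2 difference of 1.28 (two-sided exact permutation p = 0.0286, adjusted over 6 ratio tests 0.0571), which did not pass the correction; against all 8 controls it did (1.17, adjusted exact p = 0.0121). In rhabdomyolysis the CPM ratios were 55.3, 113, 113 and 72.3 against 76.8 to 88.7 in controls 5 to 8, on both sides of them, and the log2 ratio differed by -0.018 (exact permutation p = 1). The cisplatin CPM ratios were 105, 105, 164 and 120, each above the controls and 1 of them above the lowest IRI mouse. On the tested scale, where 1 is added to the 1.90 to 5.84 CPM of Slc34a3, cisplatin overlapped the controls, with a log2 difference of 0.18 (exact permutation p = 0.229, adjusted 0.274). With a pseudocount of 0.1 the difference was 0.54 (adjusted exact p = 0.0571). IRI and cisplatin ratios were not tested against each other.

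Kl, the FGF23 co-receptor made mainly in the distal convoluted tubule and also in the proximal tubule (chr5:150952607-150993817, plus strand), fell in the 3 injuries, furthest in rhabdomyolysis. Controls ran from 845 CPM through a median of 1207 to 1341. IRI mice had 282, 310, 344 and 304 CPM, cisplatin mice 256, 149, 220 and 231 CPM, and rhabdomyolysis mice 144, 165, 132 and 154 CPM. The IRI mice lay above all other injured mice, and cisplatin and rhabdomyolysis overlapped. Mean Kl was 3.56-fold lower in IRI (-1.81, SE 0.15, limma adjusted p = 6.14e-10), 5.75-fold lower in cisplatin (-2.54, SE 0.15, limma adjusted p = 1.02e-12) and 8.26-fold lower in rhabdomyolysis (-3.04, SE 0.15, limma adjusted p = 4.01e-14). The difference of effects was 1.23 for IRI against rhabdomyolysis (SE 0.21, limma adjusted p = 6.30e-05) and 0.73 for IRI against cisplatin (SE 0.21, limma adjusted p = 0.0108). Rhabdomyolysis against cisplatin gave -0.50 (SE 0.15, limma adjusted p = 0.00742), and under quantile normalization -0.34, no longer past the threshold (limma adjusted p = 0.0814).

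Of the 6 genes, 3 were called lower and 2 higher in rhabdomyolysis against cisplatin, where 32.7% of all tested genes were called lower and 21.4% higher. Among the calls of all genes the share of higher ones was 39.6%, and 51.7% under quantile normalization. The IRI effect was the higher for 3 of the 6 genes and the lower for 1 when set against rhabdomyolysis (28.6% and 23.4% of all tested genes). Against cisplatin it was the higher for 2 and the lower for 0 (13.5% and 16.8%); the share of higher calls over all genes there was 44.5%, and 55.7% under quantile normalization. Groups without overlap between injury and own controls were found for 1 higher and 3 lower of the 6 genes in IRI (34.4% and 35.4% of all tested genes), 0 and 5 in rhabdomyolysis (44.7% and 44.4%), and 1 and 4 in cisplatin (44.4% and 41.4%).

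The genes were also set against the proximal tubule as a whole. The mean of the 18 proximal tubule markers shifted by -1.55 (IRI), -2.85 (rhabdomyolysis) and -2.44 (cisplatin). Each gene was tested again after subtracting that mean in every library. Few genes of the table lay below the proximal tubule mean in this comparison: 3.35% of all tested genes were called lower in IRI, 2.05% in rhabdomyolysis and 1.67% in cisplatin, while 87.8%, 93.5% and 95% were called higher. The 18 markers themselves fell unequally around their mean. In IRI, mean Slc7a13 went from 754 CPM in controls 1 to 4 to 43.6, and Slc13a3 from 697 to 513. In cisplatin, mean Miox went from 2618 CPM in controls 5 to 8 to 95.2, and Slc4a4 from 1194 to 718. A fall beyond the marker mean is therefore not particular to the cotransporters. In IRI, 2 of the 6 genes were lower relative to that mean, Slc34a1 at -1.13 (SE 0.14, limma adjusted p = 3.83e-08) and Slc34a3 at -2.41 (SE 0.23, limma adjusted p = 7.72e-10). The same held in cisplatin, with -1.65 for Slc34a1 (SE 0.14, limma adjusted p = 1.50e-11) and -1.83 for Slc34a3 (SE 0.23, limma adjusted p = 3.34e-08). In rhabdomyolysis neither cotransporter was called lower than the markers: Slc34a1 was 0.40 above them (SE 0.14, limma adjusted p = 0.00744), and Slc34a3 was at 0.42 (SE 0.23, limma adjusted p = 0.0829). Leaving out 1 library moved the latter between 0.15 and 0.61, and it was called higher without rhabdomyolysis mouse 2 (0.61, limma adjusted p = 0.0181) or mouse 3 (0.57, limma adjusted p = 0.0278). The direct comparison of rhabdomyolysis with cisplatin on this scale gave 2.05 for Slc34a1 (limma adjusted p = 1.35e-11) and 2.26 for Slc34a3 (limma adjusted p = 2.03e-08). The effect of IRI minus that of rhabdomyolysis gave -1.53 (limma adjusted p = 6.94e-07) and -2.83 (limma adjusted p = 2.00e-07).

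Cyp24a1 in rhabdomyolysis was at -0.99 relative to the proximal tubule mean (SE 0.42, limma adjusted p = 0.0291), against -3.84 without that subtraction. This call was lost on leaving out control mouse 7 (-0.68, limma adjusted p = 0.136), control mouse 8, or rhabdomyolysis mouse 1, 2 or 4, and with all 8 controls (-0.74, limma adjusted p = 0.0572). Relative to the same mean, Cyp24a1 was higher by 4.23 in IRI (SE 0.42, limma adjusted p = 1.54e-09) and by 4.06 in cisplatin (SE 0.42, limma adjusted p = 1.12e-09). Cyp27b1, which had no call in CPM, was 2.50 to 3.04 above it in the 3 injuries and was called there, as were most genes of the table. Its IRI value of 2.50 was 1.58 without mouse 4, still past the threshold. Vdr was 1.14 above it in IRI, 2.08 in cisplatin and 0.43 in rhabdomyolysis (limma adjusted p = 0.0457, not past the threshold in 6 of 8 fits that left out 1 library).

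Kl differed little from the proximal tubule mean, at -0.26 in IRI, -0.19 in rhabdomyolysis and -0.10 in cisplatin, none past the threshold (limma adjusted p = 0.150, 0.289 and 0.557); without control mouse 2 the IRI value was -0.40 (limma adjusted p = 0.0358). The 8 distal convoluted tubule markers shifted by -1.60, -1.82 and -2.03 in IRI, rhabdomyolysis and cisplatin. Relative to them, Kl was lower in rhabdomyolysis at -1.22 (SE 0.20, limma adjusted p = 6.26e-07; 7.39% of all tested genes were called lower) and in cisplatin at -0.52 (SE 0.20, limma adjusted p = 0.0139; 2.4%), the latter at -0.35 with a pseudocount of 0.1 and then not past the threshold (limma adjusted p = 0.139). In IRI it was at -0.21 (SE 0.20, limma adjusted p = 0.313; 2.7%), and the IRI value exceeded that of rhabdomyolysis by 1.01 (SE 0.28, limma adjusted p = 0.00625).

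**Figure D3:**
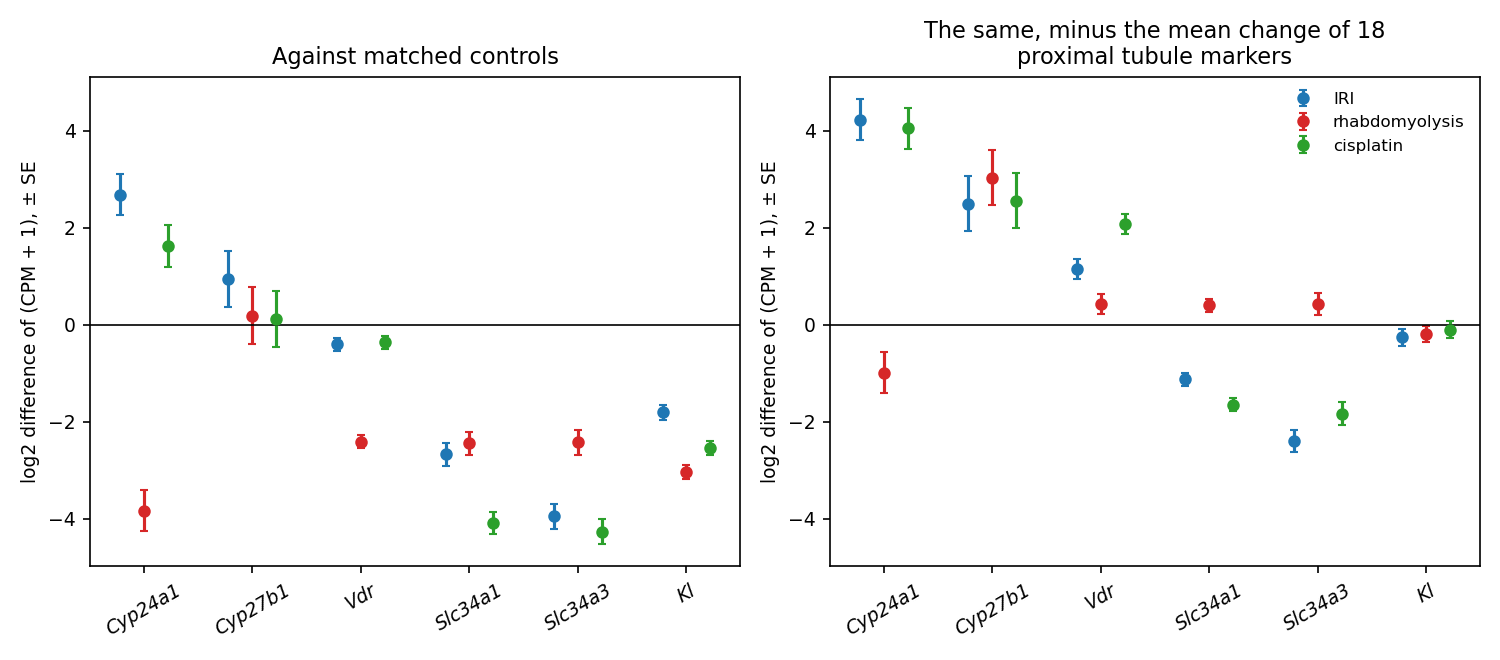
Log2 differences of (CPM + 1) with SE for the 6 genes in IRI, rhabdomyolysis and cisplatin, against the matched controls (left) and after subtracting the mean of 18 proximal tubule markers in each library (right). On the right Slc34a1 and Slc34a3 stay below 0 in IRI and cisplatin and not in rhabdomyolysis, Cyp24a1 is at 4.23, -0.99 and 4.06 in that order of injuries, and Kl lies near 0 in all 3.

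The genes around the 6 were read from 4 lists, which include them. Of 13 vitamin D genes (enzymes, carriers and receptors), 10 were in the table: 1 rose and 6 fell in IRI, 0 and 8 in rhabdomyolysis, and 2 and 7 in cisplatin, with median differences of -0.50, -1.95 and -0.68. Of all tested genes 40.6% were called higher and 40.1% lower in IRI, 48.8% and 46.5% in rhabdomyolysis, and 47.8% and 44% in cisplatin. The IRI counts moved with the processing, to 2 lower under quantile normalization and to 2 or 3 higher in several settings. The uptake receptors for the vitamin D binding protein fell in each injury. In the order IRI, rhabdomyolysis, cisplatin, the log2 differences were -0.60, -2.46 and -1.67 for megalin (Lrp2; 0.043 in IRI under quantile normalization) and -0.61, -2.91 and -1.08 for cubilin (Cubn; -0.21 in IRI under quantile normalization, limma adjusted p = 0.378). Cyp27a1, a mitochondrial sterol hydroxylase that also acts on vitamin D, fell (-1.65, -1.97 and -1.04). Rxra, the dimer partner of the vitamin D receptor, fell in rhabdomyolysis (-1.12) and cisplatin (-0.85), and was at -0.22 in IRI (limma adjusted p = 0.0625) and at 0.11 there under quantile normalization. It was called lower in IRI with all 8 controls (-0.29, limma adjusted p = 0.00822) and in the fit on only the 8 libraries compared (-0.22, limma adjusted p = 0.0449).

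Gc, which encodes the vitamin D binding protein itself, rose in cisplatin. Controls 5 to 8 had 29.7 to 34.1 CPM and the cisplatin mice 643 to 805 CPM, a 22.2-fold higher mean (log2 difference 4.43, SE 0.17, limma adjusted p = 9.24e-16). IRI mice had 40.5 to 74.7 CPM (0.37, limma adjusted p = 0.0512) and rhabdomyolysis mice 24.7 to 31.3 CPM (-0.17, limma adjusted p = 0.323). Both overlapped their controls. The IRI value passed the threshold in 4 of the settings that kept all libraries, at 0.55 with all 8 controls (limma adjusted p = 0.00293). Leaving out 1 library moved it between 0.21, without IRI mouse 2, and 0.52, without control mouse 4, and 3 of these 8 fits passed the threshold.

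Of 17 phosphate genes, 14 were in the table: 5 rose and 7 fell in IRI, 5 and 8 in rhabdomyolysis, and 5 and 8 in cisplatin, with medians of -0.44, -0.73 and -0.66. Set beside 40.6% higher and 40.1% lower of all tested genes in IRI, 48.8% and 46.5% in rhabdomyolysis and 47.8% and 44% in cisplatin, nothing is read from the counts of this list. The other member of the cotransporter family, Slc34a2 (NaPi-IIb, the form known from intestine and lung), went the other way from its relatives. It had 2.58 to 4.14 CPM in the 8 controls, 27.7 to 77.5 in IRI, 4.43 to 34.2 in rhabdomyolysis and 41.3 to 84.2 in cisplatin, each group above the controls. Its differences were 3.45, 2.00 and 3.71 (SE 0.39 each, limma adjusted p = 7.39e-08, 5.06e-05 and 1.39e-08). The broadly expressed phosphate importer Slc20a1 (PiT-1) also rose, by 1.23, 1.66 and 1.69.

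The scaffold proteins that hold NaPi-IIa at the brush border fell in each injury, Pdzk1 with differences of -1.32, -3.79 and -1.60 and Slc9a3r1 (NHERF1) with -0.76, -1.32 and -0.62. Pdzk1 had 1216 to 1582 CPM in controls 5 to 8 and 85.3 to 102 in rhabdomyolysis, a 14.1-fold lower mean. Ezr, which links this scaffold to actin, rose by 0.49, 0.69 and 0.77. Pth1r, the parathyroid hormone receptor, fell (-0.70, -2.21 and -1.96). Quantile normalization left Pth1r in IRI at -0.097 and Slc9a3r1 in cisplatin at -0.19, neither past the threshold. Stc1, the hormone stanniocalcin-1, rose in cisplatin by 1.37 (limma adjusted p = 0.000108).

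Of 15 genes of the FGF23 and klotho axis, 6 were in the table: 2 rose and 3 fell in IRI, and 2 rose and 4 fell in rhabdomyolysis and in cisplatin, with medians of -0.23, -1.29 and -1.24. With 6 genes, and 40.6% and 40.1% of all tested genes called higher and lower in IRI, 48.8% and 46.5% in rhabdomyolysis and 47.8% and 44% in cisplatin, nothing is read from these counts either. Fgfr4, an FGF receptor of the tubule, fell (-0.53, -1.28 and -1.57). Fgfr3 fell in rhabdomyolysis (-1.58) and cisplatin (-0.91) and was at 0.067 in IRI (limma adjusted p = 0.692; -0.098 with all 8 controls). Fam20c, the kinase that phosphorylates FGF23, fell (-0.89, -1.29 and -1.72). The genes that rose were Egr1, an immediate early factor induced by FGF23 signalling and by many other stimuli (1.93, 4.35 and 4.74), and Adam10, a protease that can shed klotho (0.51, 0.75 and 0.70).

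Of 14 calcium transport genes, 9 were in the table: 3 rose and 6 fell in IRI, 3 and 5 in rhabdomyolysis, and 3 and 6 in cisplatin, with medians of -0.70, -0.55 and -0.94. The shares of all tested genes were 40.6% higher and 40.1% lower in IRI, 48.8% and 46.5% in rhabdomyolysis, and 47.8% and 44% in cisplatin. Calb1, the calbindin of the distal tubule, fell (-2.27, -2.24 and -2.05), and so did Casr, the calcium-sensing receptor (-1.38, -1.72 and -2.29). All 5 loop of Henle markers in the table (of 7 listed) were lower in each injury too, with medians of -3.44, -3.49 and -1.88. They summed to 1818 to 3205 CPM in controls, 278 to 397 in IRI, 197 to 358 in rhabdomyolysis and 392 to 460.5 in cisplatin, none at 0 in all libraries of a group, and their part in the values of Casr and Cldn14 was not tested. The calcium channel Trpv6 rose by 1.12, 1.43 and 1.60 from 0.845 to 3.45 CPM in controls. Cldn14, a claudin that limits calcium reabsorption in the thick ascending limb, had at most 2 reads in any control and was at least 13.2-fold higher in IRI, 6.53-fold in rhabdomyolysis and 2.68-fold in cisplatin, against a floor of 3 reads per library. The medians of all tested genes, 0.077, 0.31 and 0.30, lay above those of each of the 4 lists. In the same order of injuries, the medians were -1.39, -2.90 and -2.12 for the proximal tubule markers. For the distal convoluted tubule markers they were -1.16, -1.78 and -2.11. The comparison with all genes therefore does not set the lists apart from tubule genes.

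**Figure D4:**
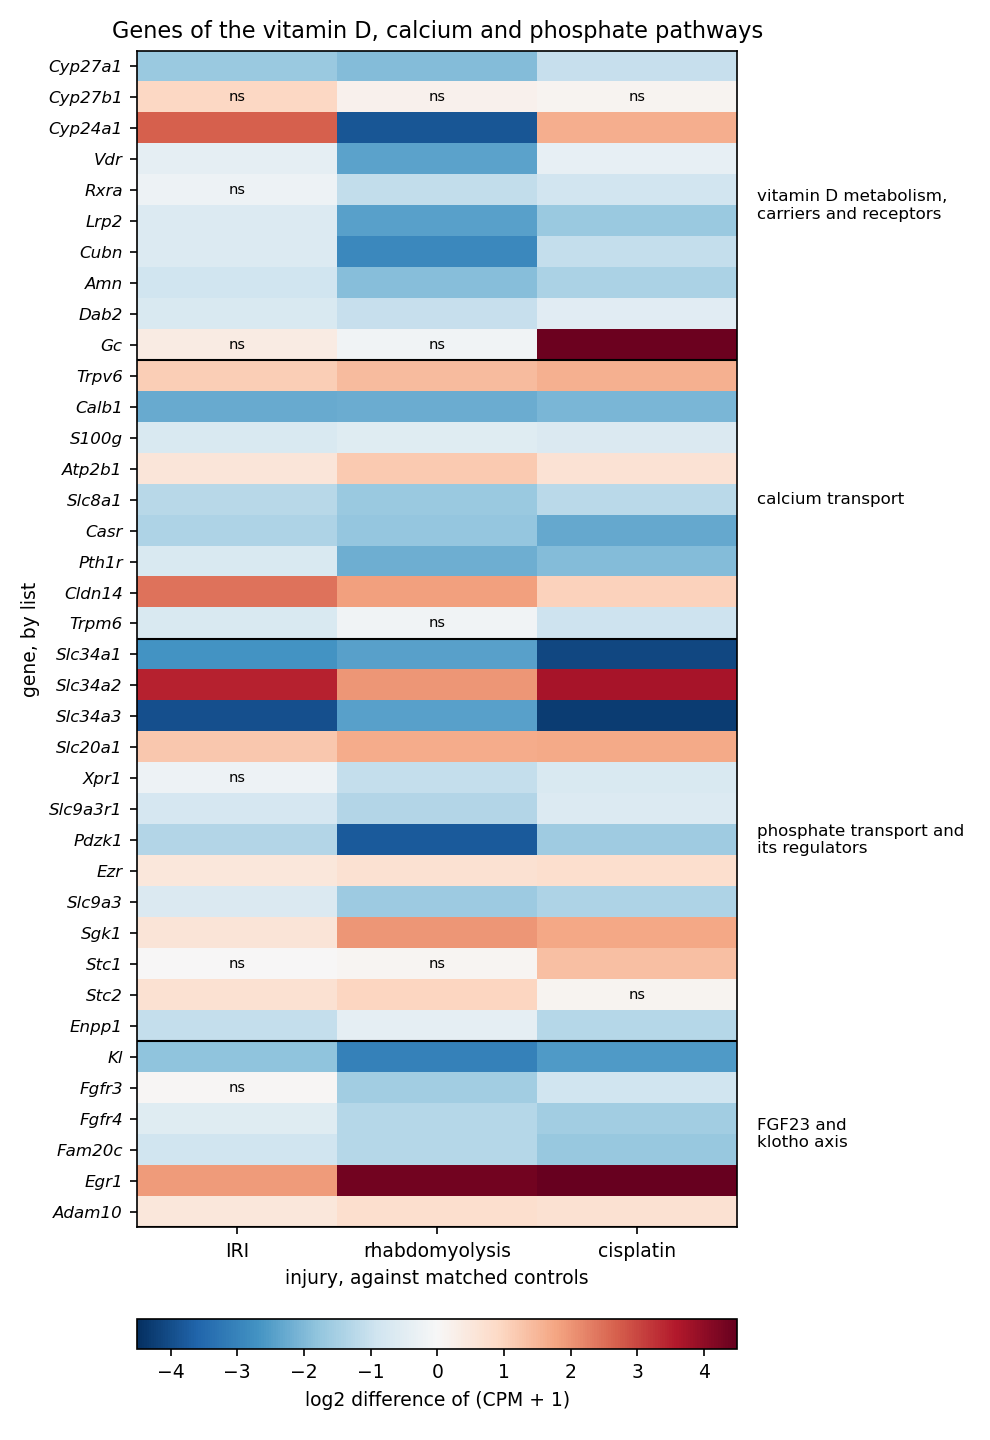
Log2 difference of (CPM + 1) against matched controls for the listed vitamin D, calcium, phosphate and FGF23 genes in the table (rows) in IRI, rhabdomyolysis and cisplatin (columns), with ns where limma's adjusted p was not under 0.05. Gc stands out at 4.43 in cisplatin, Slc34a2 is higher in the 3 injuries while Slc34a1 and Slc34a3 are lower, and Cyp24a1 changes direction between rhabdomyolysis and the other injuries.

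The genes whose log2(CPM + 1) most resembled each of the 6 across the 20 libraries, among the 4429 genes whose mean reached 5 CPM, are given as a description, since the libraries fall into the same 4 groups for every gene. Slc34a1 was most like Ces1e (r = 0.994), Slc22a8 (0.993) and Miox (0.990), the last 2 being among the proximal tubule markers above, and Slc34a3 was most like Cyp2d26 (0.989), Dpep1 (0.976) and Slc22a22 (0.972). Kl was most like Nnt (0.991), Macrod2 (0.989) and Rhcg (0.989). Vdr was most like Anpep (0.972), Sgsm2 (0.971) and Bnip3 (0.963). For Cyp24a1 the r values were lower, with Gstm5 (0.913), 1700016C15Rik (0.889) and Slc38a3 (0.878). Gstm5 shared its order of groups, with means of 157 CPM in controls, 362 in IRI, 78.7 in rhabdomyolysis and 348 in cisplatin. For Cyp27b1 the highest r was 0.639, with Ctxn3.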

How the data were processed

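RNA-seq values of kidney cortex from 20 mice were taken from 1 deposited table of normalized values. Per the submitters' processing notes, FastQC, Bowtie2 2.1.0, RSEM 1.2.15 and edgeR were used with GRCm38 (mm10); the normalization is not given in the sources used here. The deposited values behave as CPM: within each library 100% were whole multiples of 1 step (largest distance from a whole number 5.03e-05), which gives effective library sizes of 6.07 to 10.6 M (mega) reads. The 95% intervals of differences come from limma's SE between mice, and the floor of 3 reads covers counting error only.

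Samples were grouped by their labels. The fit used limma 3.58.1 (R 4.3.3) on log2(CPM + 1): 1 model with 5 cells (each range of controls and each injury), a mean-variance trend, and Benjamini-Hochberg adjustment over the 5672 genes tested; 353 with a mean under 1 CPM were left out. Ratios were tested by exact permutation (scipy 1.17.1). Nothing says that mice were litter- or batch-matched, and p-values measure the spread between these mice. Also tried were all 8 controls, a pseudocount of 0.1, no minimum mean or 5 CPM, no trend, 75th percentile scaling, quantile normalization, edgeR 4.0.16 on recovered reads (in place of which the CPM fit stands as main), fits on 8 libraries, and leaving out each library. The fits were tested on simulated data. The 6 genes and the lists were chosen with earlier results of these data known. Named genes are the 6, the list members and the 3 genes most correlated with each of the 6. Coordinates come from GENCODE vM21, promoters from RefSeq.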

Additional observations from a re-analysis of the deposited data

Results flagged for a closer look

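A library stood far from its group in 3 of the 24 sets of gene and group examined, where chance flags about 1 in 20, or 1.2 sets. That rate holds for normally distributed values. The rule was applied to CPM and not to the log2 scale of the tests, so 1.2 is a rough guide and the flags may depend on the scale. Cyp27b1 in IRI mouse 4 lay above the next mouse by a gap of 0.978 of the group's range. That mouse also brought the gene past the 1.5-fold limit of the table. Cyp24a1 in control mouse 7 lay above the next control by 0.529 of the range, and Vdr in cisplatin mouse 2 lay below the next mouse by 0.868 of the range.

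The effects below differed between injuries (limma adjusted p under 0.05, log2 scale). IRI minus rhabdomyolysis gave 6.52 for Cyp24a1, 2.01 for Vdr, 1.23 for Kl and -1.53 for Slc34a3. IRI minus cisplatin gave 1.41 for Slc34a1 and 0.73 for Kl. Rhabdomyolysis minus cisplatin gave -5.46 for Cyp24a1, -2.05 for Vdr, -0.50 for Kl, 1.64 for Slc34a1 and 1.85 for Slc34a3. Each IRI effect was taken against controls of its own identifier range. Cisplatin differs in its time too, which cannot be told apart from the injury.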

How the results depend on the processing

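Of the values recomputed, 3044 kept their direction and their side of the threshold or stayed within their limit, 40 changed sign, 38 lost their call, 23 gained one and 11 moved past their limit. The calls for Cyp24a1, Slc34a1, Slc34a3 and Kl against controls held in every setting run, as did that for Vdr in rhabdomyolysis. With all 8 controls Cyp27b1 was at 1.10 in IRI and -0.033 in cisplatin, Stc1 at -0.048 and Fgfr3 at -0.098 in IRI, Kl relative to proximal markers at -0.32 in IRI and Cyp24a1 at -0.74 in rhabdomyolysis, and the count of genes whose IRI and cisplatin effects differ was 2636, against 1716. The ratios then gave 1.17 (Slc34a1 to Slc34a3, IRI), 0.094 (the same, rhabdomyolysis), -3.59 and 1.94 (Cyp24a1 to Cyp27b1, rhabdomyolysis and cisplatin). With 75th percentile scaling Vdr was at -0.28 in IRI and -0.27 in cisplatin, Gc at 0.0072 and Trpm6 at 0.031 in rhabdomyolysis, and the level of Vdr in rhabdomyolysis at 78.6 CPM. With quantile normalization IRI gave 0.046 for Vdr, 0.11 for Rxra, 0.043 for Lrp2, 0.078 for Xpr1 and -0.16 for Stc1; rhabdomyolysis gave 0.056 for S100g and -0.11 for Stc1; cisplatin gave -0.15 for Cyp27b1, 0.081 for Vdr, 0.035 for Dab2 and -0.26 for Stc2; and Kl in rhabdomyolysis against cisplatin gave -0.34. With edgeR Cyp27b1 in IRI was at 2.16. A pseudocount of 0.1 gave 0.43 for Vdr in rhabdomyolysis relative to proximal markers (0.43 also with no trend), 0.019 and -0.35 for Kl relative to distal markers in IRI and cisplatin, and 0.060 for the cotransporter ratio in rhabdomyolysis. Vitamin D genes called higher in IRI numbered 3 with all 8 controls and with edgeR and 2 with either scaling, and those called lower 2 with quantile normalization, against 6. The cause was not tested.

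Leaving out 1 library moved Cyp27b1 between 0.0020 and 1.35 in IRI, -0.068 and 0.57 in rhabdomyolysis, -0.14 and 0.31 in cisplatin, -0.12 and 0.44 in rhabdomyolysis against cisplatin, -0.19 and 1.17 in IRI against rhabdomyolysis, and -0.12 and 1.23 in IRI against cisplatin. It moved Vdr between -0.54 and -0.26 in IRI and between -0.17 and 0.10 in IRI against cisplatin, and Cyp24a1 in the latter between 0.69 and 1.50. Relative to proximal markers, the range was -0.40 to -0.070 for Kl in IRI and, in rhabdomyolysis, -1.46 to -0.68 for Cyp24a1, 0.37 to 0.51 for Vdr and 0.15 to 0.61 for Slc34a3. The cotransporter ratio in rhabdomyolysis ran from -0.15 to 0.17, vitamin D genes called higher in IRI from 1 to 2, Stc1 from -0.20 to 0.22 in IRI and -0.029 to 0.19 in rhabdomyolysis, Fgfr3 in IRI from -0.021 to 0.19 and Trpm6 in rhabdomyolysis from -0.26 to 0.067.

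Replicate numbers did not pair the mice: correlations of same-numbered deviations were -0.11 to 0.18 for IRI with controls and -0.21 to 0.32 for rhabdomyolysis with cisplatin. With a replicate block 4411 genes were called in IRI (4472 from the same 8 libraries without it) and 2834 in rhabdomyolysis against cisplatin (2929 without it), and no call of the 6 genes changed. Of the 4 mice per comparison, not every mouse correlated best with its own number. Read counts were low for Cyp27b1, at 19 to 76 reads in controls, and for Slc34a3 in cisplatin, at 17 to 50 reads. The part of depth in their spread was not tested.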

Other observations

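Rhabdomyolysis mouse 3 had the highest Cyp24a1 (17.1 CPM) and the lowest Cyp27b1 (2.66 CPM) of its group. Chosen after the values were seen, Car3 and Hp were the 2 genes, of 4429 with a mean of at least 5 CPM, that exceeded each other rhabdomyolysis mouse by at least 5-fold in this library.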
